A study of Mus musculus with 12 samples.

Results

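Mouse embryonic fibroblasts homozygous for the S allele of Rb1 (genotype Rb1 S/S) were compared with wild-type fibroblasts (Rb1 +/+) that the labels match to them. The arrays were chosen by title, which gave 3 S/S and 3 wild-type arrays, 6 of the 12 arrays of the series. The other 6 arrays hold L/L fibroblasts, which carry a different Rb1 allele, and their own matched wild type. Fibroblasts of all 4 groups were grown in 10% serum to passage 4 and then kept for 72 h in 0.1% serum, so every group compared here was serum-starved, and the total RNA of each sample was measured on its own Affymetrix Mouse Gene 1.0 ST array. The labels do not state what the S allele changes in the protein, and they do not say whether the 3 samples of a group came from separate embryos. The p-values therefore measure the spread among these samples, which may be partly technical, and precision is limited by how few arrays there are.

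Rb1 encodes the retinoblastoma protein, which binds E2F transcription factors and keeps the genes they drive for DNA replication and mitosis silent in cells that have left the cell cycle. Fibroblasts that lack serum leave the cycle, and wild-type cells then keep these genes low. The title of the series names the silencing of endogenous retroelements as its subject, and transcripts of such elements are known to be able to set off the interferon response, in which secreted interferon induces antiviral proteins such as the TRIM, IRG, OAS and IFIT families. The question put to these data was which genes differ in S/S cells under starvation.

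Values are RMA values on the log2 scale, so a difference of 1 is a 2-fold difference, and 19938 genes were tested, each by 1 probe set. The threshold was an adjusted p of 0.05 (limma, Benjamini-Hochberg adjustment over all genes), and a gene below it is said to have passed. The groups are called non-overlapping for a gene when all 3 S/S arrays lie above, or all 3 lie below, all 3 wild-type arrays.

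Wild-type array 1 stood apart from the other 5 arrays, so the calls are also given without it, as are some of the other results that it moved. A value given with 12 arrays alone may also have been moved by it: Rbl2 went from 0.55 to 0.38 and Mmp3 from −0.87 to −1.15. It was the highest or lowest of the 6 arrays for 70.5% of genes, against 19.5% to 33.1% for each of the other 5. Set against the mean of the other wild-type arrays, it read 0.38 higher in the median of the 5382 genes with a level under 6, and 0.22 lower in the 2901 genes at 10 or more. Its values thus lay closer together, and dim genes appeared higher and bright genes lower on it than on the arrays of the same genotype. The 15 measured fibroblast markers were strongly expressed on all 6 arrays, with mean levels of 11.14 to 11.46 in wild type against 11.21 to 11.36 in S/S. Vim, the intermediate filament of mesenchymal cells, was 13.31 to 13.62 in wild type against 13.39 to 13.66 in S/S. All 6 arrays had Xist, the RNA of the inactive X chromosome, at 10.4 to 11.5. The Y-linked genes Eif2s3y, Uty and Kdm5d read 3.82 to 5.51, and this range is called the no-target level below, since it is what probe sets gave without a target. In the L set, which shares the SE of the 12-array fit, array 1 of each group went against this: Xist was 5.06 on that wild-type array and 5.41 on that L/L array, and Eif2s3y was 9.15 and 9.09, while the other 4 arrays had Xist at 11.20 to 11.43. The labels do not give the sex of the embryos.

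Rb1 RNA was present in S/S cells. It was 8.34, 8.83 and 8.89 on the wild-type arrays and 9.72, 9.58 and 9.35 on the S/S arrays, so the groups did not overlap. The difference of 0.87 did not pass (SE 0.17, adjusted p = 0.0976), and without wild-type array 1 it was 0.69 (adjusted p = 0.114). The level gives no check of the genotype, since the labels do not say whether the S allele alters the transcript.

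In S/S cells 24 genes passed, which is 0.12% of the genes tested. Of these, 18 were higher (0.0903%) and 6 were lower (0.0301%), and all 24 were non-overlapping. With no adjustment, p was under 0.05 for 10.1% of genes, 5.21% higher and 4.93% lower. Over all genes, 11.8% were non-overlapping, 5.49% higher and 6.29% lower. Without wild-type array 1, 28 genes passed (0.14%), 14 in each direction (0.0702% each), and 18 of the 24 were among them. The 6 that no longer passed were Tshr, Scn3b, Htr2a, Mir100, Mir145a and Olr1, with adjusted p-values of at most 0.0572. Each of the 24 kept its direction and between 0.80 and 1.08 of its log2 difference. Of the 10 genes that passed without that array and not with it, 8 were lower in S/S. Without the 2 arrays numbered 1 of the L set, which differ from the other arrays in Xist and Y-linked RNA, 37 genes passed (0.186%), 16 of the 24 among them. The count of 24 depended on which array was left out. It was 28, 3 and 16 without wild-type array 1, 2 and 3 in turn, and 3, 2 and 8 without S/S array 1, 2 and 3 in turn.

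**Figure D1:**
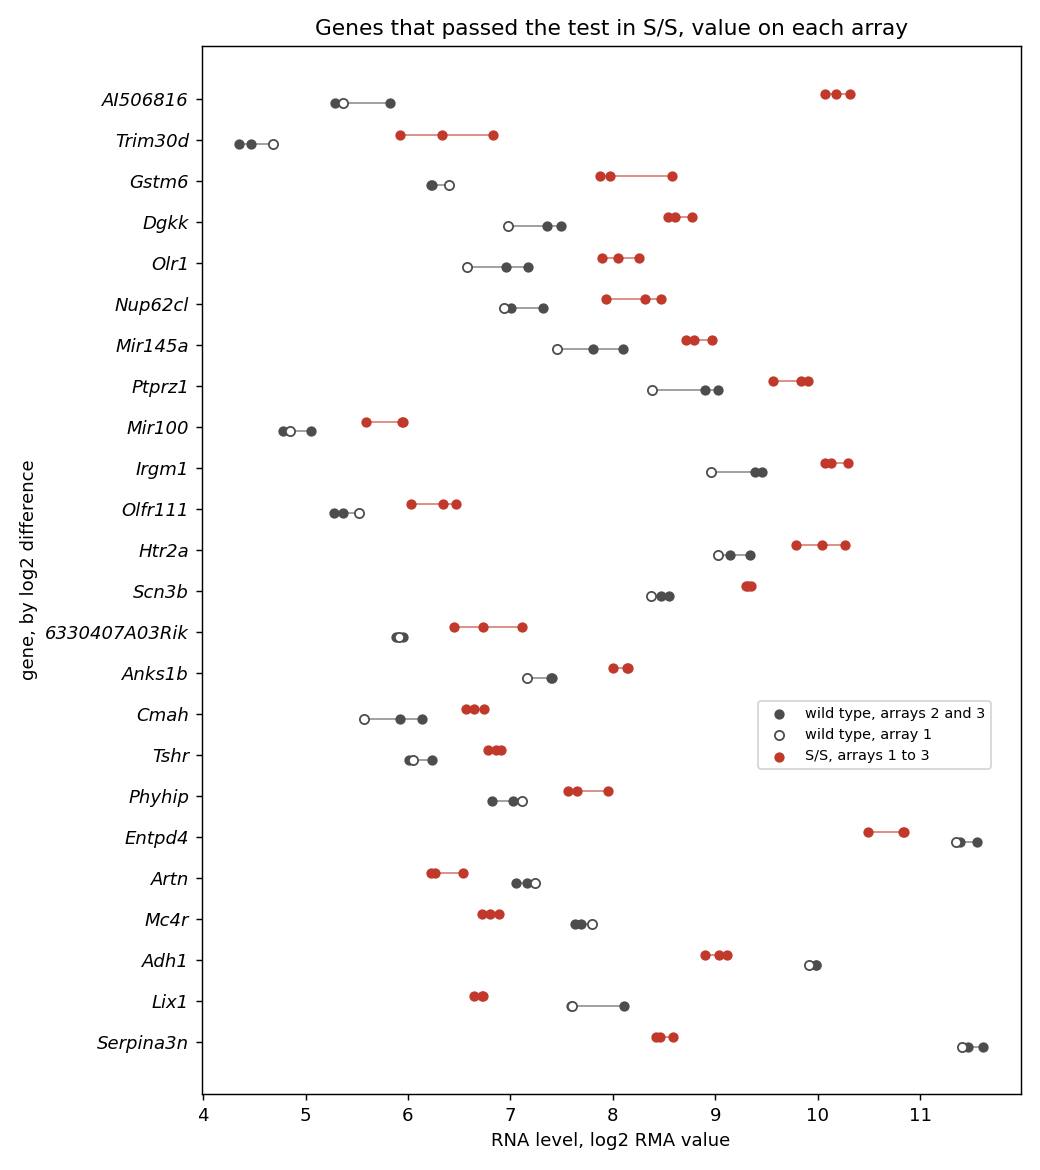
RNA level (log2 RMA value, horizontal axis) of the 24 genes that passed the test, on each of the 6 arrays. Grey points are the wild-type arrays, with wild-type array 1 open, and red points are the S/S arrays. The groups of every gene are separate, and the widest gaps are those of AI506816 (wild type 5.29 to 5.82, S/S 10.07 to 10.32) and Serpina3n (wild type 11.41 to 11.62, S/S 8.42 to 8.59).

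Differences in size beyond 2-fold were few and mostly rises. A difference of at least 1 on the log2 scale was measured for 52 genes, 39 higher and 13 lower, and for 51 of them the groups did not overlap. The median difference over all genes was −0.036, and −0.0056 without wild-type array 1. The share of genes with a positive difference was 42.4%, and 48.3% without that array.

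**Figure D2:**
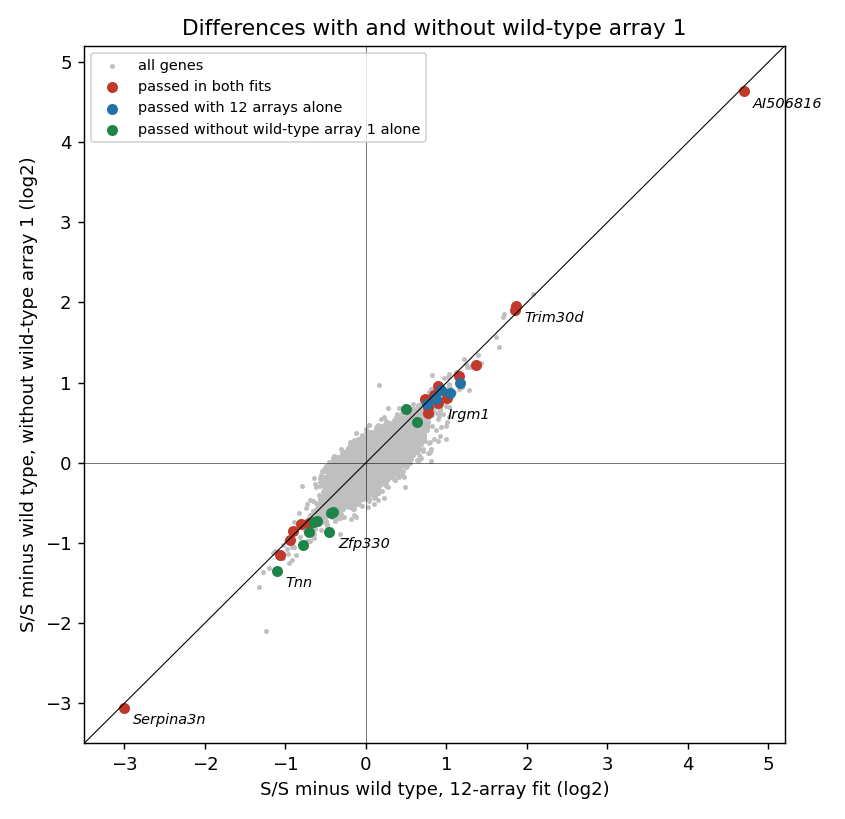
Log2 difference between S/S and wild type for 19938 genes in the fit of 12 arrays (horizontal axis) and in the fit without wild-type array 1 (vertical axis), with the line of equality. Red points are the 18 genes that passed in both fits, blue points the 6 that passed with 12 arrays alone and green points the 10 that passed without wild-type array 1 alone; the called genes lie near the line, and 8 of the 10 green points are below 0.

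AI506816, a transcript of unassigned function, had the largest rise. On the wild-type arrays it was 5.36, 5.29 and 5.82, at or just above the no-target level. On the S/S arrays it was 10.32, 10.07 and 10.18. The measured difference was 4.70 on the log2 scale (SE 0.18, adjusted p = 1.48e-08). Where a wild-type mean lies within the no-target level the fold is a lower bound, computed with each wild-type value raised to at least 5.51, the top of that level. AI506816 was thus at least 23.8-fold higher, and at least 22.98-fold without wild-type array 1. It passed in each of the 6 fits that left out 1 array of the comparison. The measured genes beside it on the chromosome moved much less. Its 5 measured neighbours on each side differed by −0.35 to 0.41, and 2 of these 10 were non-overlapping, Rint1 (0.41, adjusted p = 0.257) and Pus7 (0.31, adjusted p = 0.416), neither of which passed. The promoter window of AI506816 in RefSeq (GRCm38.p6, 250 bases before to 50 bases after the start, 5′ to 3′) is shown because the gene has the largest difference of the comparison.
AI506816, chr5:23712618-23712917, minus strand: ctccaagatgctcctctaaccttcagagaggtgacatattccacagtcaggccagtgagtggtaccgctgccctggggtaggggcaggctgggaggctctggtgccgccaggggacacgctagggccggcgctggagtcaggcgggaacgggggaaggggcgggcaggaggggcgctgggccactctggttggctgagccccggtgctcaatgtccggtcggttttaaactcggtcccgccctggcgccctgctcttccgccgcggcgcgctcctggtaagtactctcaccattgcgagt

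The next rise in size among genes that passed was that of Trim30d, a member of the TRIM family of antiviral and innate immune regulators. It was 4.69, 4.47 and 4.35 in wild type, within the no-target level, against 6.83, 6.33 and 5.92 in S/S. The measured difference was 1.86 (SE 0.25, adjusted p = 0.0162), and 1.95 without wild-type array 1 (adjusted p = 0.0239), and as a bound it was at least 1.80-fold higher in both. Trim30a and Trim12a, genes of the same cluster on chromosome 7, showed the same order of arrays without passing. Trim30a, a regulator of Toll-like receptor signalling, was 6.41, 5.92 and 6.02 in wild type against 7.99, 8.27 and 7.22 in S/S (1.71, SE 0.41, adjusted p = 0.176). Trim12a, related to the retroviral restriction factor TRIM5, was 4.84, 4.80 and 4.66 in wild type, within the no-target level. In S/S it was 6.80, 7.44 and 6.27 (2.07, SE 0.42, adjusted p = 0.0976). On the L/L arrays Trim12a was 4.63, 4.96 and 6.76, Trim30a was 5.61, 6.93 and 7.52, and Trim30d was 4.65, 4.34 and 5.41. L/L array 3 was thus within the S/S range for Trim12a and Trim30a. In the wild type of the L set Trim12a was 4.78, 4.98 and 4.70, and Trim30a was 5.89, 6.38 and 6.97. With the 6 arrays fitted alone the SE was 0.26 for each of the pair, and Trim30a (adjusted p = 0.0437) and Trim12a (adjusted p = 0.0272) passed, where 0.221% of all genes passed. Other genes of the cluster had small differences, with Trim34a at 0.15, Trim6 at −0.091 and Trim12c at −0.10 (−0.32 without wild-type array 1). How far the probe sets of these related genes share signal is not known here, so their values are uncertain as separate genes.

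Irgm1 encodes an interferon-inducible GTPase that acts on autophagy and on the vacuoles of intracellular microbes. It was 8.96, 9.46 and 9.39 in wild type against 10.13, 10.29 and 10.07 in S/S, a difference of 0.90 (SE 0.14, adjusted p = 0.0367), and 0.74 without wild-type array 1 (adjusted p = 0.0272). It was the 1 gene of the 9 measured interferon-inducible GTPases that passed, against 0.12% of all genes. Of the guanylate-binding members, Gbp9 was non-overlapping (0.28, or 0.19 without wild-type array 1), while Gbp7 (0.44) and Gbp5 (−0.43, or −0.23) were not, and 5 of the 9 had a mean within the no-target level.

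The promoter windows of these genes were searched because 3 neighbouring Trim genes and Irgm1 are known interferon-responsive families. The search used part of the interferon-stimulated response element, GAAANNGAA, on both strands, for which 8.56% of all 32851 RefSeq promoter windows and 9.2% of the 15563 measured genes with a window held a match. Among the 24 called genes, 16 had a window, and 4 of them (25%) held a match: Trim30d, Irgm1, Gstm6 and Anks1b. Trim30d and Irgm1 prompted the search, so this share is a description and no test. The letters were also in 8 of 10 windows of the list of Trim30 cluster and related Trim genes. All 4 windows of interferon-inducible GTPases held them too, while 1 gene of each of these lists passed. A GAS-type match, TTCNNNGAA, was found in 2 of the 16 (12.5%), against 9.01% of measured genes, and an E2F-type match, TTTNNCGC, in 0 of the 16, against 7.56%. For comparison, the E2F-type letters were in 17 of 40 windows of DNA replication genes and the interferon-type letters in 17 of 37 windows of interferon-stimulated genes. A match describes the letters in the window and is not a measured binding site. The windows below are from RefSeq (GRCm38.p6), 5′ to 3′ on the strand of the gene, with the matches in capitals, and they show how alike the Trim30d and Trim30a windows are.
Trim30d, chr7:104507800-104508099, minus strand: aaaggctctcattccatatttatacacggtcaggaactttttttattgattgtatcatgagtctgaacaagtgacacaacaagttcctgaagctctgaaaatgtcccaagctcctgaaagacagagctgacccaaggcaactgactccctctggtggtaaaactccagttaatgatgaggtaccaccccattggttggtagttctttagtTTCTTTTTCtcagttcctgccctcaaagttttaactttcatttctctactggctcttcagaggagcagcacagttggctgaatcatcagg
Trim30a, chr7:104465144-104465443, minus strand: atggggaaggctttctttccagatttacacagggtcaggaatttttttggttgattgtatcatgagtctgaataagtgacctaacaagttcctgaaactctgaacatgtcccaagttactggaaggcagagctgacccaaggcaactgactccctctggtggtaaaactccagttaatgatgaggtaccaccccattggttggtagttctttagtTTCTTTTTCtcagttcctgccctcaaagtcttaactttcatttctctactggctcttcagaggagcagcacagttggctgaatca
Trim12a, chr7:104315446-104315745, minus strand: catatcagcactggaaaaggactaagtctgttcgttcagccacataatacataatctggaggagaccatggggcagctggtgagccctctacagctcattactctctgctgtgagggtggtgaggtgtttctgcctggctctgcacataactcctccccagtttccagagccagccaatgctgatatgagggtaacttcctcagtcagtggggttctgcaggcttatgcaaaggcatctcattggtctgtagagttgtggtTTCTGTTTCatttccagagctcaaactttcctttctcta
Irgm1, chr11:48871371-48871670, minus strand: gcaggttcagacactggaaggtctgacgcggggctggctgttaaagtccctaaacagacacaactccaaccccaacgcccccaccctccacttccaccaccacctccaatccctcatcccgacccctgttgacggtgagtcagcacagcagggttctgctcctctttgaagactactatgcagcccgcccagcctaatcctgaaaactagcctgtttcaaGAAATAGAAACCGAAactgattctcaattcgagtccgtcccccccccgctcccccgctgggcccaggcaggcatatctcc
The printed Trim30d and Trim30a windows share an unbroken run of 118 bases that holds the match, while the longest run either shares with the Trim12a window is 9 bases. A second Trim30a window, not printed, also holds a match, and the longest run it shares with the Trim30d window is 31 bases. In Irgm1 a pair of matches overlap, and their first bases lie at −30 and −24 from the annotated start.

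Dgkk, a diacylglycerol kinase, was 6.98, 7.36 and 7.49 in wild type against 8.77, 8.61 and 8.54 in S/S (1.36, SE 0.18, adjusted p = 0.0162). Ptprz1, a receptor tyrosine phosphatase best known in glia, was 8.38, 8.90 and 9.03 in wild type against 9.84, 9.91 and 9.56 in S/S (1.00, adjusted p = 0.0367). In both genes wild-type array 1 had the lowest value, and without it the differences were 1.21 and 0.81, both still passing (adjusted p = 0.0239 each). Olr1, the scavenger receptor for oxidised lipoprotein, was 6.57, 6.96 and 7.18 in wild type against 8.26, 7.89 and 8.05 in S/S. Its difference went from 1.16 (adjusted p = 0.0392) to 1.00 without that array (adjusted p = 0.0572).

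Tshr, the receptor of thyroid-stimulating hormone, was 6.05, 6.01 and 6.23 in wild type against 6.78, 6.91 and 6.86 in S/S (0.75, adjusted p = 0.0446). Htr2a, a serotonin receptor, was 9.03, 9.14 and 9.34 in wild type against 10.27, 10.04 and 9.79 in S/S (0.87, adjusted p = 0.0392). Scn3b, a regulatory subunit of voltage-gated sodium channels, was 8.38, 8.47 and 8.55 in wild type against 9.32, 9.35 and 9.30 in S/S, the tightest S/S group of the called genes (0.86, SE 0.14, adjusted p = 0.0392). Each of these 3 had an adjusted p of 0.0572 without wild-type array 1, although the arrays remained separate. The odorant receptor gene Olfr111 was low in both groups, at 5.28 to 5.52 in wild type against 6.03 to 6.47 in S/S (0.89, adjusted p = 0.0496). Its wild-type mean lay within the no-target level, and as a bound it was at least 1.70-fold higher.

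Gstm6, a mu-class glutathione transferase that joins glutathione to electrophiles, was 6.40, 6.24 and 6.22 in wild type against 7.87, 7.97 and 8.58 in S/S. The 3.62-fold difference (log2 1.85, SE 0.25, adjusted p = 0.0162) was 3.76-fold without wild-type array 1. It did not extend to the family: of the 33 measured genes of glutathione and oxidative stress defence, Gstm6 was the 1 that passed. Over all genes 0.12% passed. In the list 22 were lower, and the median was −0.066. Gsto1 (0.52, adjusted p = 0.0721) and Gpx3 (0.48) were non-overlapping and higher, and Gstm4 (−0.26) was non-overlapping and lower. Cmah, the hydroxylase that makes the sialic acid Neu5Gc, was 5.57, 5.92 and 6.14 in wild type against 6.64, 6.57 and 6.74 in S/S (0.77, adjusted p = 0.0471). Without wild-type array 1 the difference of Cmah was 0.62 and still passed (adjusted p = 0.0369).

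The remaining called rises were in genes of other or unknown roles. Nup62cl, related to a nucleoporin, was 6.93, 7.01 and 7.32 in wild type against 7.94, 8.48 and 8.32 in S/S (1.16, SE 0.16, adjusted p = 0.0162). Anks1b, a scaffold protein of synapses, was 7.16, 7.41 and 7.40 in wild type against 8.14, 8.15 and 8.005 in S/S (0.77, adjusted p = 0.021). Phyhip, a partner of a peroxisomal hydroxylase, rose by 0.74 (adjusted p = 0.0392), and 6330407A03Rik, an unnamed transcript, by 0.85 (adjusted p = 0.0392). These 4 genes also passed without wild-type array 1.

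Probe sets annotated to microRNA genes gave 2 of the 24 calls. Mir145a, a microRNA gene of smooth muscle and fibroblasts, was 7.46, 7.81 and 8.10 in wild type against 8.72, 8.97 and 8.80 in S/S (1.04, adjusted p = 0.0392). Its cluster partner Mir143 was higher by 0.32 and did not pass (adjusted p = 0.396). Mir100 was 4.85, 4.78 and 5.05 in wild type, within the no-target level, against 5.94, 5.95 and 5.59 in S/S (0.93, adjusted p = 0.0392). As a bound it was at least 1.24-fold higher. Mir99a, whose mature product has the same seed, was 5.02, 5.69 and 5.94 in wild type against 6.12, 6.26 and 5.88 in S/S, and these groups overlapped (0.54, adjusted p = 0.439, or 0.27 without wild-type array 1). Of 30 measured genes in the list of fibroblast microRNAs, 19 were higher, 16 had a mean within the no-target level, and 0 passed without wild-type array 1 in limma. Which part of the transcript these probe sets detect is not known here, so the values do not measure the mature microRNA. The mature sequences are printed from RefSeq (GRCm38.p6), 5′ to 3′, with the seed, bases 2 to 8, in capitals, to show that the product of the called gene shares its seed with that of the gene that was not called.
mmu-miR-100-5p, chr9:41531437-41531458, plus strand: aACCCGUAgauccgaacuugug
mmu-miR-99a-5p, chr16:77598940-77598961, plus strand: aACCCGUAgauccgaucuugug

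Serpina3n, a secreted inhibitor of serine proteases that belongs to the acute-phase response, had the largest fall. It was 11.41, 11.47 and 11.62 in wild type against 8.42, 8.46 and 8.59 in S/S. It was 8.06-fold lower (log2 −3.01, SE 0.25, adjusted p = 0.000204), and 8.31-fold lower without wild-type array 1. The fall is relative to the matched wild type alone. Serpina3n read only 7.45, 8.08 and 8.49 on the other wild-type arrays, those of the L set. The L/L arrays gave 7.98, 8.36 and 9.02. S/S thus lay near the level of the L set, and the matched wild type stood apart. Why that wild type was higher was not tested. With AI506816, Serpina3n was 1 of the 2 genes that passed in all 6 fits that left out an array of the comparison. It was the 1 gene of the 21 measured acute-phase and complement genes that passed, against 0.12% of all genes. That list had a median of −0.17, or −0.11 without wild-type array 1, and 6 members had a mean within the no-target level. Groups were non-overlapping and lower for 7 members, against 6.29% of all genes. Besides Serpina3n these included Steap4, a metalloreductase (−0.38), and Hp, haptoglobin (−0.32, or −0.18 without that array), neither of which passed.

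The other 5 called falls ranged from −0.71 to −1.07. Adh1, an alcohol dehydrogenase that also oxidises retinol, was 9.91, 9.98 and 9.98 in wild type against 9.11, 9.04 and 8.90 in S/S (−0.94, SE 0.13, adjusted p = 0.021). Of the 28 measured genes of retinoid metabolism and signalling 21 were lower, and the list median was −0.061. Adh1 was the 1 that passed, against 0.12% of all genes. Mc4r, the melanocortin receptor of appetite circuits, was 7.80, 7.63 and 7.69 in wild type against 6.80, 6.88 and 6.72 in S/S (−0.90, adjusted p = 0.0259). Artn, artemin, a neurotrophic ligand of the GDNF family, was 7.24, 7.05 and 7.16 in wild type against 6.22, 6.27 and 6.54 in S/S (−0.81, adjusted p = 0.021). Lix1, a gene first described in the developing limb, was 7.60, 7.59 and 8.11 in wild type against 6.72, 6.73 and 6.64 in S/S (−1.07, adjusted p = 0.0464). Entpd4, a nucleotidase of the Golgi, was 11.35, 11.39 and 11.56 in wild type against 10.50, 10.84 and 10.83 in S/S (−0.71, adjusted p = 0.0405). All 5 passed without wild-type array 1 as well. In the wild type of the L set the mean was 6.82 for Mc4r, 6.46 for Artn and 10.39 for Entpd4. These means were near or below those of S/S (6.80, 6.34 and 10.72). Adh1 (10.39) and Lix1 (7.13) were higher in that wild type than in S/S (9.02 and 6.70).

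Leaving out wild-type array 1 brought 8 further falls past the threshold. Tnn, tenascin-W, a matrix protein of periosteum and tendon, was 8.07, 8.79 and 8.79 in wild type against 7.36, 7.48 and 7.48 in S/S. Its difference went from −1.11 (adjusted p = 0.0735) to −1.35 (adjusted p = 0.0239). Zfp330, a nucleolar zinc-finger gene, was 7.76 on wild-type array 1, below its S/S values of 8.24, 8.01 and 8.09, but 8.86 and 9.10 on the other wild-type arrays, and its difference went from −0.46 to −0.87 (adjusted p = 0.0239). The gene of the tachykinin precursor, Tac1, went from −0.78 to −1.03 (adjusted p = 0.0367), and the RNA-binding gene Raver2 from −0.70 to −0.87 (adjusted p = 0.0239). The spindle-orientation gene Gpsm2 (−0.62), Ccdc8 (−0.74), the glycosyltransferase gene Galnt13 (−0.73) and Lrrc42 (−0.61) were the other 4. In each of these 8 genes wild-type array 1 had the lowest of the wild-type values. The 2 rises gained were Casp14, a caspase of the epidermis (0.67, adjusted p = 0.0457), and the small nucleolar RNA gene Snord16a (0.50, adjusted p = 0.0369).

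Some large differences with separate groups did not pass with 12 arrays, where the spread of all 4 groups enters the SE. Several of these genes varied among the wild-type arrays of the L set by more than the S/S difference. There Emcn was 9.06, 8.19 and 6.98, Prl3a1 was 9.22, 8.64 and 7.35, and Lgr5 was 9.36, 10.98 and 10.86. Sfrp2 was 9.90, 10.88 and 11.36 there, while Enpp3 varied less, at 6.90, 7.71 and 7.75. Emcn, an endothelial sialomucin, was 6.70, 6.64 and 7.01 in wild type against 8.50, 8.21 and 8.48 in S/S (1.62, SE 0.41, adjusted p = 0.197). Prl3a1, a prolactin-family hormone gene of placenta, was 6.86, 7.16 and 7.67 in wild type against 8.78, 8.71 and 8.49 in S/S (1.43, adjusted p = 0.229). Among lower values, Hpse2, a heparanase-related gene, was 8.88, 9.19 and 9.02 against 7.72, 7.79 and 7.73 (−1.28, adjusted p = 0.0976). Lgr5, a receptor for R-spondins that raises Wnt signalling, was 11.40, 11.38 and 11.30 in wild type against 10.34, 10.24 and 10.05 in S/S (−1.15, adjusted p = 0.26). Sfrp2, a secreted Wnt modulator, was 11.11, 11.09 and 11.06 against 9.99, 10.29 and 9.88 (−1.03, adjusted p = 0.22), and Penk, the precursor of enkephalins, differed by −1.13 (adjusted p = 0.199). Tmem26 (−1.21), the phosphodiesterase gene Enpp3 (−1.07) and the BMP-family ligand gene Gdf10 (−0.99) lay in the same range.

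The 6 arrays fitted alone gave 44 called genes (0.221%), 30 higher (0.15%) and 14 lower (0.0702%), of which 11 were among the 24. Emcn, Prl3a1, Hpse2, Lgr5, Sfrp2, Penk, Tmem26, Enpp3 and Gdf10 were all among the 33 added. The added rises also held genes of macrophages, which are described with the markers of other cell types below.

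Mitosis genes were more often lower than higher in S/S, and how evenly depended on wild-type array 1. Of 49 measured mitosis genes, 39 were lower, with a median of −0.26, and 14 were non-overlapping and lower, against 6.29% of all genes. With that array left out, 48 of the 49 were lower, the median was −0.32, and 34 were non-overlapping and lower, against 13.4% of all genes. In both limma fits 0 of the 49 passed, and with 12 arrays 12 had an unadjusted p under 0.05, all of them lower, against 4.93% of all genes. The mean level of the list was 8.19 on wild-type array 1, 8.58 and 8.59 on the other wild-type arrays, and 8.22, 8.34 and 8.18 in S/S, so wild-type array 1 lay within the S/S range. Cenpa, the histone variant of centromeres, was 8.91, 9.41 and 9.39 in wild type against 8.58, 8.81 and 8.77 in S/S (−0.51, adjusted p = 0.343). Without wild-type array 1 the difference of Cenpa was −0.68 (adjusted p = 0.1). Spc24, a kinetochore subunit, differed by −0.52 (adjusted p = 0.23) and by −0.65 without that array (adjusted p = 0.0572). The condensin subunit Ncapd2 (−0.43) and separase, Espl1 (−0.43), had the next smallest p-values, and Cdk1, the mitotic kinase, was at −0.39.

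DNA replication genes had the same pattern with smaller values. Of 48 measured, 36 were lower (median −0.16) and 12 were non-overlapping and lower, against 6.29% of all genes. When wild-type array 1 was left out, 46 were lower (median −0.22) and 27 were non-overlapping and lower, against 13.4% of all genes. Again 0 passed in either limma fit. With 12 arrays 9 lower and 1 higher had an unadjusted p under 0.05, against 4.93% and 5.21% of all genes. The mean level was 8.29, 8.62 and 8.62 in wild type against 8.28, 8.40 and 8.43 in S/S. In the L set it was 8.02, 8.15 and 8.44 in wild type, which overlapped the S/S range, and 8.64, 8.60 and 8.63 in L/L. Orc1, of the origin recognition complex, was 6.49, 6.74 and 6.53 against 6.34, 6.01 and 6.31 (−0.37, adjusted p = 0.35). The nucleotide synthesis genes Tk1 (−0.49) and Dut (−0.47) and the histone chaperone gene Chaf1b (−0.42) were non-overlapping, and Mcm6, of the replicative helicase, was at −0.28. The 12 G1 cyclins and kinases went the other way with 12 arrays, where 9 were higher with a median of 0.041, and turned to 11 lower with a median of −0.073 when wild-type array 1 was left out. None of these 12 passed in limma or was non-overlapping with 12 arrays, and Cdk6, a kinase of G1 (0.42, or 0.20 without that array), was the 1 with an unadjusted p under 0.05.

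The RB and E2F genes themselves showed no called difference. Of the 20 measured pocket protein, E2F and DREAM genes, 8 were higher and 12 lower, with medians of −0.058 and −0.063 in the 2 fits. With 12 arrays 3 were non-overlapping and higher and 0 non-overlapping and lower, against 5.49% and 6.29% of all genes. Without wild-type array 1 these counts were 3 and 6, against 11.2% and 13.4%. E2f1 was 8.75, 9.13 and 9.19 in wild type against 8.78, 9.03 and 9.10 in S/S (−0.055), and its direction changed when wild-type array 3 or S/S array 1 was left out. Rbl2, which encodes the RB relative p130, was 8.26, 8.75 and 8.77 in wild type against 9.10, 9.29 and 9.03 in S/S (0.55, adjusted p = 0.232). The 30 measured CDK inhibitors and p53 targets had a median of 0.14, or 0.039 without wild-type array 1, and 10 were non-overlapping and higher, against 5.49% of all genes. Mdm2, the ligase that degrades p53, was 10.58, 10.47 and 10.76 in wild type against 11.33, 11.44 and 11.31 in S/S (0.76, adjusted p = 0.102). The apoptosis genes Pmaip1 (0.75) and Perp (0.65) were also separate between groups. With limma 0 genes of the list passed, and 10 higher and 1 lower had an unadjusted p under 0.05.

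**Figure D3:**
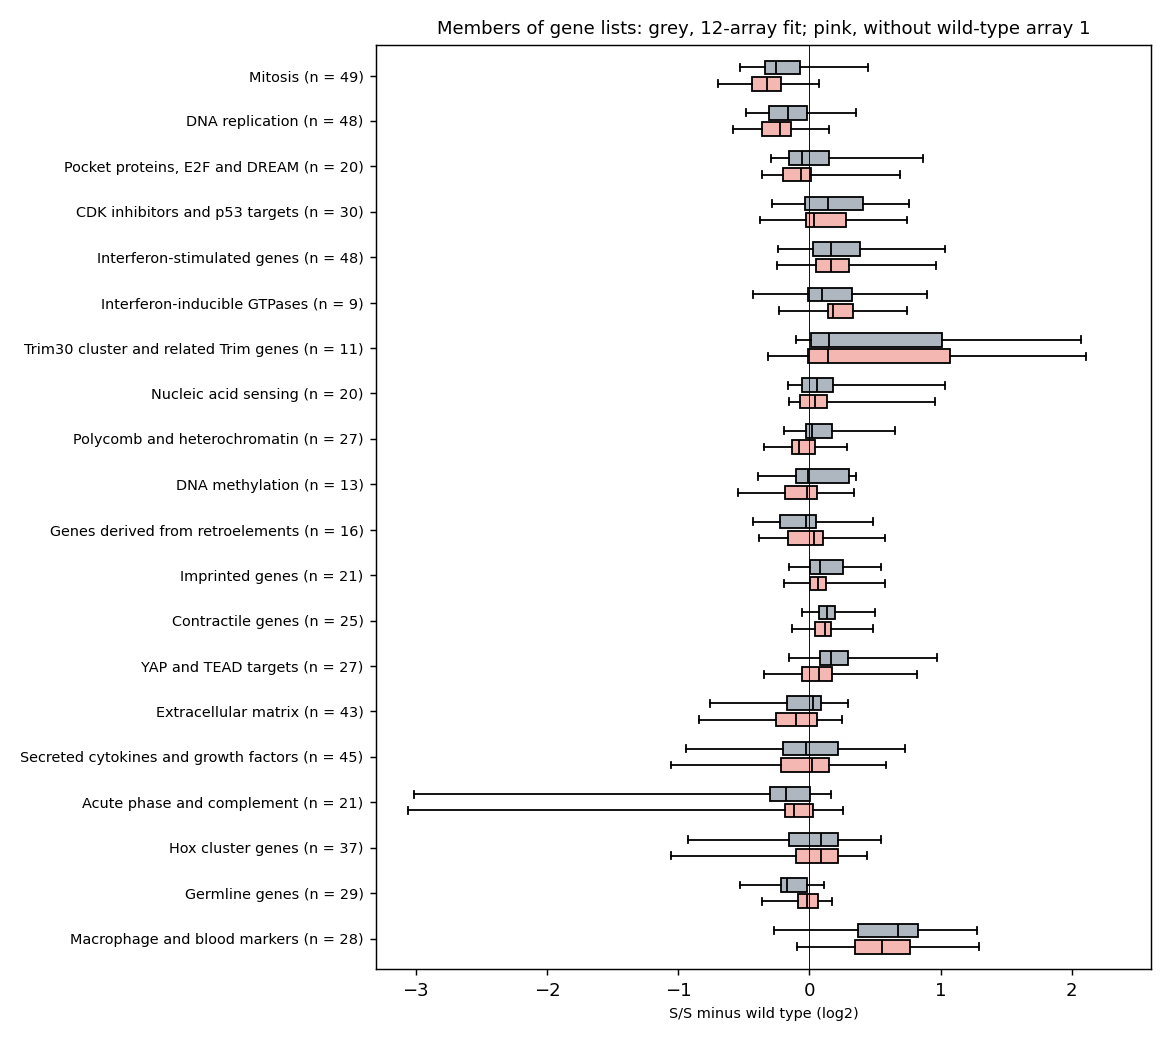
Log2 difference between S/S and wild type (horizontal axis) for the members of 20 gene lists. Grey boxes are from the fit of 12 arrays and pink boxes from the fit without wild-type array 1; a box spans the interquartile range, its line is the median and whiskers reach the lowest and highest member. Mitosis genes have medians of −0.26 and −0.32, and macrophage and blood markers 0.68 and 0.55.

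Most interferon-stimulated genes were a little higher in S/S. The count was 37 of the 48 measured, and the median was 0.17, or 0.16 without wild-type array 1. Groups were non-overlapping and higher for 16, against 5.49% of all genes, and non-overlapping and lower for 0. With limma 0 passed and 6 had an unadjusted p under 0.05, all higher, against 5.21% of all genes. Mx2, an antiviral GTPase, was 4.97, 5.04 and 5.32 in wild type, within the no-target level, against 6.25, 6.16 and 6.02 in S/S (1.03, adjusted p = 0.0578). Ifit1 (0.74), Usp18 (0.70), Ifi205 (0.66), Rtp4 (0.61) and Ifit3 (0.60) had separate groups, while Oasl1 (−0.24), Oas1a (−0.14), Irf1 (0.031) and Mx1 (0.0081) did not. The mean level of the list was 8.12, 8.12 and 8.17 in wild type against 8.31, 8.43 and 8.32 in S/S. The same list ran from 8.02 to 8.46 in the wild-type arrays matched to L/L and from 8.18 to 8.77 in L/L, a wider range than in the 6 arrays compared here. Of 20 genes that sense nucleic acids upstream of interferon 4 were non-overlapping and higher, against 5.49% of all genes. Without wild-type array 1 the count was 5, against 11.2% of all genes. Among the 4 were the sensors Dhx58 (0.52) and Ifih1 (0.33, or 0.20 without wild-type array 1), and the median of the list was 0.060.

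Macrophage and blood markers moved with the interferon genes in the same arrays. S/S was higher for 27 of the 28 measured, and the median was 0.68, or 0.55 without wild-type array 1, and 23 were non-overlapping and higher, against 5.49% of all genes. The mean level of the list was 7.56, 7.64 and 7.74 in wild type against 8.25, 8.22 and 8.32 in S/S, so the groups were separate. Cd68, a lysosomal protein of macrophages, was 9.46, 9.15 and 9.33 in wild type against 10.63, 10.22 and 10.75 in S/S (1.22, SE 0.59, adjusted p = 0.512). Cd53, a leukocyte tetraspanin, was 6.85, 7.77 and 8.15 against 8.78, 8.90 and 8.93 (1.28, adjusted p = 0.516), and Itgam, the integrin of myeloid cells, differed by 0.74. Lyz2, the most abundant marker, was 10.73, 11.17 and 11.21 against 11.63, 11.71 and 11.79 (0.68, adjusted p = 0.686). The scavenger receptor gene Cd163 went the other way (−0.27, or −0.094 without wild-type array 1) with a mean within the no-target level.

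With 12 arrays 0 of the 28 passed (limma; 1 had an unadjusted p under 0.05). The arrays of the L set, which enter the SE, had a list level of 7.12, 7.83 and 8.95 for wild type and of 6.81, 8.24 and 8.07 for L/L. With the 6 arrays fitted alone, 3 of the 28 passed, all higher, against 0.15% of all genes. They were Cd68 (SE 0.17, adjusted p = 0.0387), Fcer1g, the signalling chain of Fc receptors (adjusted p = 0.0437), and Lcp1, the leukocyte plastin (adjusted p = 0.0497). Macrophage genes outside the list passed in that fit too, among them the chemokine gene Ccl3 (1.39), the Toll-like receptor partner Cd180 (1.29), the metalloelastase gene Mmp12 (1.15), Tlr7 (1.04) and Igsf6 (1.03). The scavenger receptor gene Cd36 was 4.70, 5.40 and 5.28 in wild type, within the no-target level, against 6.66, 7.14 and 6.54 in S/S. Wfdc17 was 7.83, 7.54 and 7.43 in wild type against 9.92, 8.84 and 9.15 in S/S. In whole cultures more macrophages and more RNA per macrophage cannot be told apart. Macrophages also express Irgm1, Trim30a, Olr1 and many interferon-stimulated genes, and the part of these markers in the differences of those genes was not tested.

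**Figure D4:**
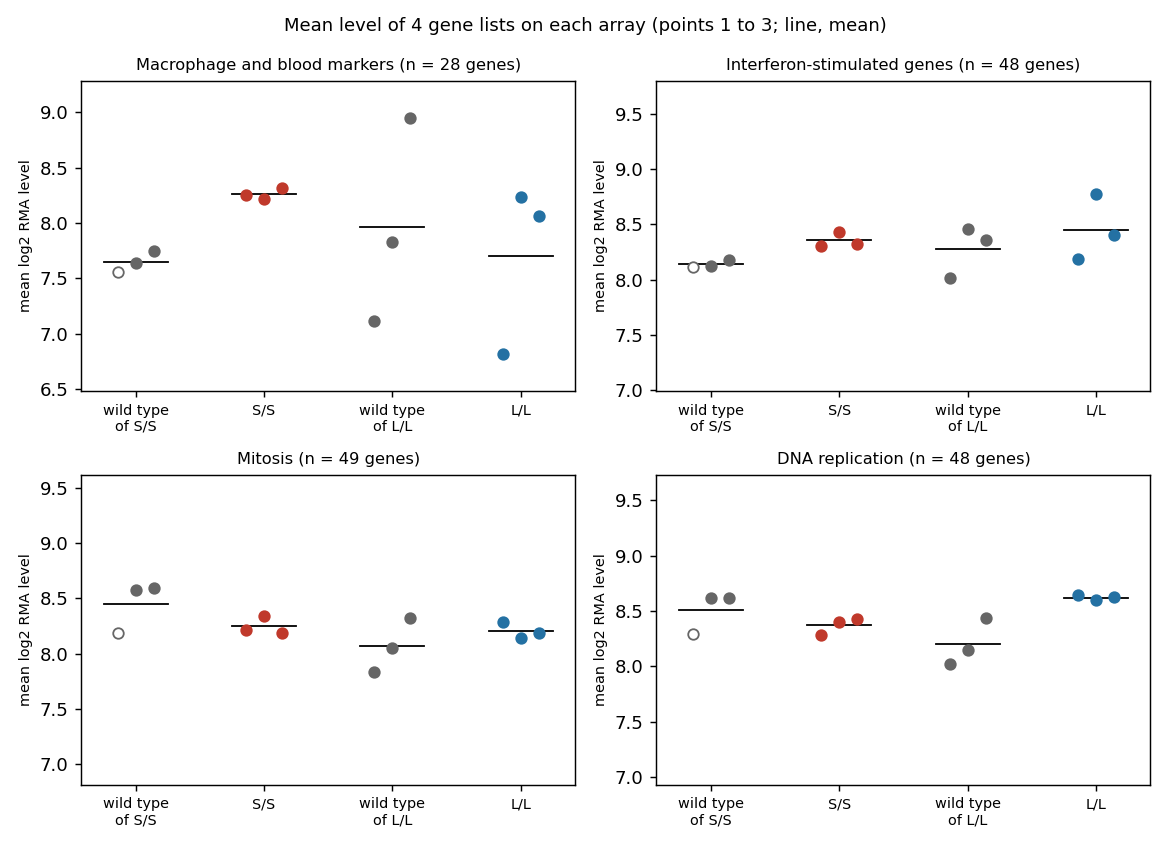
Mean log2 RMA level of 4 gene lists on each of the 12 arrays, by group (vertical axis; each panel spans the same number of log2 units); points are arrays 1 to 3 of a group, with wild-type array 1 of the S/S comparison open, and the line is the mean. Macrophage and blood markers are at 7.56 to 7.74 in the wild type of S/S and 8.22 to 8.32 in S/S, and range from 6.81 to 8.95 in the L/L set.

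Markers of other cell types gave 1 further call, Ptprz1, which stands in the neural list. Several of these lists were lower in the 12-array fit and near 0 without wild-type array 1. The medians went from −0.17 to 0.023 for epithelial, from −0.13 to −0.0085 for skeletal muscle, from −0.16 to −0.032 for neural and from −0.17 to −0.016 for germline genes. The germline list read 5.72 on wild-type array 1, 5.34 and 5.35 on the other wild-type arrays and 5.30 to 5.35 in S/S, and 14 of its 29 members had a mean within the no-target level. Cartilage and bone markers kept a lower median (−0.21 and −0.13), with Alpl, the alkaline phosphatase of bone, at 7.62, 8.84 and 8.09 in wild type against 7.22, 7.07 and 8.18 in S/S, which overlapped. Sox9, the most abundant of them, was 10.38 to 10.61 in wild type against 10.43 to 10.55 in S/S. Among neural markers, Stmn2 was separate and lower (−0.70, adjusted p = 0.146) and Ncam1, the most abundant, was 11.86 to 11.99 against 12.05 to 12.11. Among endothelial markers Flt1, a VEGF receptor, was 8.71, 8.88 and 8.97 in wild type against 9.60, 9.57 and 9.54 in S/S (0.72, adjusted p = 0.0603), and Eng, the most abundant, differed by 0.40, while the list median was −0.082, or 0.031 without wild-type array 1. Tnnt2, the most abundant skeletal muscle marker, differed by 0.13, and Spint2, the most abundant epithelial one, by −0.23.

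Hox cluster genes, which record position along the body and limb, went in both directions. Of the 37 measured Hox cluster genes, 7 were non-overlapping and higher and 7 non-overlapping and lower, against 5.49% and 6.29% of all genes. With limma 0 passed, and 6 higher and 6 lower had an unadjusted p under 0.05. Hoxa13, which patterns digits, was 8.34, 8.18 and 8.18 in wild type against 7.29, 7.36 and 7.30 in S/S (−0.91, SE 0.18, adjusted p = 0.0965). Hoxd13 was 9.24, 9.58 and 9.67 against 8.54, 8.68 and 8.51 (−0.92, adjusted p = 0.268), and Hoxd12 (−0.55), Hoxd11 (−0.58) and Hoxa11 (−0.31) were also separate and lower. Hoxb9 (0.49) and Hoxc13 (0.55) had separate groups in the other direction. Among 38 limb and body patterning factors 7 were non-overlapping and lower, against 6.29%, and 3 non-overlapping and higher, against 5.49%. Tbx4, a T-box factor of the hindlimb, was 9.20, 9.51 and 9.45 in wild type against 8.62, 8.34 and 8.45 in S/S (−0.92, adjusted p = 0.102). Lhx2, a factor of limb outgrowth, was 8.77, 8.25 and 8.37 against 7.51, 7.43 and 7.77 (−0.90, adjusted p = 0.0735), and Msx1 differed by −0.69. Meis2, a factor of the proximal limb, was 9.88, 9.99 and 9.85 against 10.58, 10.28 and 10.36 (0.50, adjusted p = 0.173). Which part of the embryos the cells came from is not given in the labels.

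Extracellular matrix genes had a median of 0.027, with 24 of the 43 measured higher, and of −0.10 when wild-type array 1 was left out, with 29 lower. Groups were non-overlapping and lower for 7 and higher for 2, against 6.29% and 5.49% of all genes, and without that array for 14 and 2, against 13.4% and 11.2%. With limma 0 passed, and 4 lower and 2 higher had an unadjusted p under 0.05. Lum, lumican, was 10.64, 10.87 and 10.94 in wild type against 10.30, 10.21 and 9.68 in S/S (−0.75, adjusted p = 0.381), and the microfibril gene Mfap5 differed by −0.55. Lox, the collagen crosslinking enzyme (0.23), and Nid1, a basement membrane linker (0.29), were separate and higher. Contractile genes were higher for 21 of 25, with a median of 0.13 and 5 non-overlapping, against 5.49% of all genes. Des, the intermediate filament of muscle, had the largest difference (0.50) with overlapping groups, and Myh11 of smooth muscle was separate (0.33). YAP and TEAD targets were higher for 22 of 27, with a median of 0.17 that was 0.072 without wild-type array 1. Ankrd1, a strongly YAP-responsive gene, was 7.29, 7.56 and 7.95 in wild type against 8.54, 8.86 and 8.32 in S/S (0.97, adjusted p = 0.192), and Tgfb2 differed by 0.49.

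Secreted signals went in both directions. Of 45 measured cytokine and growth factor genes, 10 were non-overlapping and higher and 8 non-overlapping and lower, against 5.49% and 6.29% of all genes. Artn was the 1 that passed, against 0.12% of all genes. Ereg, an EGF-family ligand, was 6.09, 6.51 and 6.55 in wild type against 7.21, 7.19 and 6.95 in S/S (0.73, adjusted p = 0.0965). Ptgs2, the inducible cyclooxygenase, was 10.07, 10.31 and 10.60 against 11.08, 11.10 and 10.94 (0.71, adjusted p = 0.193). Cxcl5, a neutrophil chemokine, was 7.56, 8.02 and 8.08 against 7.27, 6.96 and 6.76 (−0.89, adjusted p = 0.22), and Cxcl15 differed by −0.94. Among the 30 immediate early genes the median was 0.12, with 21 of them higher, and the phosphatase gene Dusp4 was 7.78, 8.14 and 8.68 against 8.94, 9.29 and 9.12 (0.92, adjusted p = 0.0998). Among 23 matrix proteases and inhibitors Mmp3 was at −0.87 and Mmp9 at 0.48, and neither passed. In the cholesterol list of 26 genes Olr1 was the 1 that passed, and the median went from 0.048 to −0.17 without wild-type array 1, with the demethylase gene Cyp51 at −0.33 and −0.46.

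Named genes that descend from retroelements did not move as a group. The 16 measured had a median of −0.025, or 0.035 without wild-type array 1, and 0 passed (limma; 3 had an unadjusted p under 0.05). Peg10, which comes from a retrotransposon and is imprinted, was 10.25, 10.04 and 9.91 in wild type against 10.79, 10.51 and 10.34 in S/S (0.48, adjusted p = 0.268). Rtl3, a gag-like gene, was 11.71, 11.66 and 11.45 against 11.32, 11.03 and 11.17 (−0.43, adjusted p = 0.407), and the endogenous envelope gene Synb differed by −0.33, or −0.17 without wild-type array 1, with overlapping groups. These genes do not measure repeat copies, which have no named probe set in the tested table. Of the 27 Polycomb and heterochromatin genes 1 was non-overlapping, against 11.8% of all genes. It was Eed, a core Polycomb subunit, at 7.02, 8.06 and 8.16 in wild type against 8.35, 8.56 and 8.28 in S/S. Its difference went from 0.65 to 0.29 without wild-type array 1, while the methyltransferase gene Ezh2 was at −0.12 and its partner Suz12 at 0.45 and 0.18. The 13 DNA methylation genes had a median of −0.012, and Uhrf1, which brings the maintenance methyltransferase to replicated DNA, was at −0.39. Of 21 imprinted genes 16 were higher in both fits, with medians of 0.085 and 0.064, and Meg3 was 10.51, 10.54 and 10.97 against 11.24, 11.42 and 10.99 (0.54, adjusted p = 0.273).

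The mutated locus lies on chromosome 14, which has 699 measured genes, of which 3 passed, Htr2a, Phyhip and Entpd4. In the order of measured genes they lay 6, 17 and 34 genes from Rb1. The share of 3 in 699 stands against 0.12% of all genes tested, and the labels do not give the genetic background around the allele. Among the 20 nearest measured genes, 10 on each side of Rb1, 11 were higher, with a median of 0.084. Of these, 4 were non-overlapping and higher and 0 non-overlapping and lower, against 5.49% and 6.29% of all genes. Lpar6, whose gene lies within an intron of Rb1, was 8.42, 9.04 and 9.14 in wild type against 9.34, 9.53 and 9.51 in S/S (0.59, adjusted p = 0.303, or 0.37 without wild-type array 1).

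The 24 genes were also read in the L/L comparison, which has its own wild-type arrays. Of the 24 genes, 13 had the same direction in L/L, 13 had an L/L difference of less than 0.25 in size, and 1 passed there, Phyhip (0.83, adjusted p = 0.0226). Scn3b was also higher in L/L, by 0.83 (adjusted p = 0.0875). The S/S and L/L differences themselves differed for 3 genes (0.015%), AI506816, Serpina3n and Slc43a3, of which the first pair are among the 24. Without wild-type array 1 the contrast passed for 21 genes (0.105%). For the other 22 of the 24 the contrast with 12 arrays did not pass, which does not show that the mutants act alike. Among the called rises, Anks1b, Tshr and Htr2a had means of 8.04, 6.72 and 9.87 in the wild type of L/L. These were close to their S/S means of 8.10, 6.85 and 10.03. Most other called rises were not close to S/S in that wild type, such as Gstm6 (5.13 against 8.14) and Dgkk (6.89 against 8.64).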

How the data were processed

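RNA of 12 mouse embryonic fibroblast samples was measured on Affymetrix Mouse Gene 1.0 ST arrays. Per the labels and the series' design text, the authors made RMA values with Partek, and the deposited values are on the log2 scale as read from their range of 2.43 to 14.67. The Partek version, the genome build and the arrays normalized together are not given in the sources used here. Of 35556 probe sets, 21789 had 1 gene symbol in the platform annotation, 1621 several and 12146 none. Each of 19938 genes was tested by its probe set with 1 symbol, taking the one of highest mean over 12 arrays for the 999 genes with several. RefSeq (GRCm38.p6) gave current names for 19856, gene order and sequences.

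Testing used limma 3.58.1 (R 4.3.3). The 12 arrays entered 1 model of group means (8 residual and 5.19 prior degrees of freedom), with two-sided p-values adjusted by Benjamini-Hochberg over all genes. The fit was repeated without wild-type array 1 and with the 6 arrays alone. The script was tested on simulated data. Errors are SEs of the model.

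The arrays, members, 39 gene lists (1005 of 1097 listed members measured) and tests were chosen with earlier results of these data known, so counts over lists are descriptions. The genes named were Rb1, all that passed, up to 10 largest rises and falls without wild-type array 1 and among non-overlapping genes, the 4 members of smallest p per list and the most abundant marker per cell type. Further genes were chosen after their values were seen: Casp14, Snord16a, Gpsm2, Lrrc42, Galnt13, Ccdc8, Hoxd13, Hoxd11, Hoxa11, Cxcl15, Gdf10, Fcer1g, Lcp1, Igsf6, Tlr7, Cd180, Ccl3, Mmp12, Ezh2, Suz12, E2f1, Cdk1, Mcm6, Mir99a, Mir143, Trim12c, Rint1, Pus7, Lpar6, and the list members given by their difference alone.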

Additional observations from a re-analysis of the deposited data

Results flagged for a closer look

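The difference between S/S and wild type was not the same as that between L/L and its wild type for 3 genes, by a test of the contrast in the same limma model. AI506816 differed by 4.92 on the log2 scale (SE 0.25, adjusted p = 7.04e-07), with S/S at 4.70 and L/L at −0.22. Serpina3n differed by −3.46 (adjusted p = 0.00161), with S/S at −3.01 and L/L at 0.45. Slc43a3, a purine transporter gene, differed by −1.42 (adjusted p = 0.000511), with S/S at −0.23 and L/L at 1.19. Without wild-type array 1 the contrast passed for 21 genes (0.105%).

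Probe sets without a gene symbol were outside the comparison. In a fit that tested them together with the named genes, 23 of 12146 passed (0.189%), 21 higher and 2 lower in S/S, with differences from −2.93 to 2.96. All 23 were non-overlapping, and 10 named genes passed in the same fit. What these probe sets detect is not known here.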

How the results depend on the processing

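The 24 calls became 44 with the 6 arrays fitted alone, 415 with array weights (0.077 for wild-type array 1, 5.88 for wild-type array 2) and 3 without both arrays numbered 1, an alternative chosen after seeing the data, as were all those applied to the other counts below. With 1 array left out the count ran from 2 to 28. The 28 calls without wild-type array 1 became 117 with the other 5 arrays fitted alone and 48 with trended and robust moderation, and ran from 1 to 41 with a further array left out (2 without wild-type array 2, 1 without wild-type array 3, 3 without S/S array 1). The 3 genes whose S/S and L/L differences differed became 293 with array weights and 7 with quantile normalization, and ran from 3 to 21 with 1 array left out (21 without wild-type array 1, 5 without S/S array 3, 7 without array 3 of the wild type of L/L). Quantile normalization, a mean of at least 6 and probe sets averaged per gene kept the first count within 1.5 times, at 25, 20 and 24.

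Whether array numbers pair the samples is not settled here, and the main fits treated them as unpaired. Deviations of same-numbered arrays correlated at 0.39, 0.47 and −0.12 in the S/S comparison, where wild-type array 3 and S/S array 2 correlated at 0.59. In the L set the values were 0.60, 0.058 and 0.36. Both L-set arrays numbered 1 had low Xist (5.06 and 5.41), unlike the other arrays of that set. With the replicate block 37 genes passed, 16 of the 24 among them, and 54 without wild-type array 1.

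Without both arrays numbered 1 of the L set, also chosen after seeing the data, 37 genes passed, or 70 when wild-type array 1 was left out too, and the contrast with L/L still passed for 3 genes, the same ones.

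Each called gene kept its direction in every alternative in which it was tested; 4 of the 24 were not tested with a mean of at least 6. Differences near 0 of other genes reversed: Sox9 with quantile normalization (−0.031) and, with 1 array left out, from −0.018 to 0.10; Vim with quantile normalization (−0.0049) and from −0.036 to 0.12; E2f1 from −0.19 to 0.040; Trim12c from −0.32 to 0.072; and, without both arrays numbered 1, Spint1 (0.0088) and Tet1 (−0.010). The cause of these changes was not tested.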
